A study of Homo sapiens with 12 samples.

Results

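The PAX, LHX, SIX-family, SOX and TBX genes encode 5 families of transcription factors that pattern the embryo, and their histone marks are described here in KBM-7 cells. The members are the protein-coding genes of chromosomes 1 to 22 whose symbol is 1 of these family names followed by a number. That gave 51 members among 19122 protein-coding genes: 8 PAX, 8 LHX, 5 SIX-family, 18 SOX and 12 TBX genes. Some genes of these families were not analysed here. The rule uses gene symbols and no measured value, but it was set with earlier results of these data known. KBM-7 is a near-haploid human line from chronic myeloid leukaemia in blast crisis, so the cells are of the blood lineage. All cells were untreated and grown in IMDM with serum. ChIP-seq, the sequencing of DNA pulled down with an antibody to a histone modification, covered 9 modifications with 1 library each and 3 inputs, and the deposited data are called intervals without read counts. The depth of each library is therefore unknown. Without replicates, no value below has a replicate error and no test was made. Every comparison describes these libraries only.

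Transcription factors of this kind are switched on in narrow territories of the embryo and are off in most other cells. PAX factors carry a paired domain, LHX factors 2 LIM domains and a homeodomain, SIX-family factors a domain of their own beside a homeodomain, SOX factors an HMG box and TBX factors a T-box. In cells that do not use them, such genes are known targets of Polycomb complexes, which lay down trimethylation of lysine 27 on histone H3 (H3K27me3). H3K4me3 and H3K9ac typically lie at starts of active genes, H3K79me2 over the first part and H3K36me3 over the body of transcribed genes, H3K4me1 and H3K27ac at enhancers, and H3K4me2 at both. Intervals labelled H3K36me3 and H4K16ac were identical in all 45695 entries and are treated as 1 set. A gene counted as marked where an interval covered at least 1 bp of its window, which is its span and 5 kb on either side. Covered lengths in bp are those within this window, and shares of the span are given apart from them.

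Whether the culture carried the marks of its labelled origin was checked with fixed lists. Of 10 blood progenitor genes, 9 had H3K4me3 and 9 had H3K27ac in the window; KIT was the exception, with H3K27me3. H3K4me3 was found at 0 of 3 T-cell, 1 of 2 B-cell (CD79A), 0 of 3 fibroblast, 1 of 3 epithelial (KRT8) and 1 of 2 neuronal genes (TUBB3). In these lists of other cell types, H3K27ac was found at CD79A and KRT8 only. All 3 T-cell genes had H3K4me1 and H3K4me2 and no H3K27me3. Over all protein-coding genes, H3K4me3 was found at 59.0% and H3K27ac at 10.9%. In a bulk culture, a mark in few cells and a weak mark in all cells cannot be told apart. Neither can marks on the same and on different chromosome copies, which in a near-haploid line lie mostly in different cells. Chromosome 8 and part of chromosome 15, treated here as present in 2 copies, hold 2 of the members.

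H3K27me3 was the only set found at a larger share of the members than of all genes. It was present at 36 of 51 (70.6%), against a background of 44.3% of all protein-coding genes. It covered a median of 59.7% of the members' windows, where the median over all genes was 0. Among the other sets, H3K4me2 came close, at 38 members (74.5%) against 78.9%. H3K4me3 marked 21 (41.2%, background 59.0%), H3K9ac 23 (45.1%, background 63.5%) and H3K4me1 18 (35.3%, background 57.1%). The marks of transcribed sequence were fewer still: H3K79me2 marked 14 members (27.5%, background 48.0%) and the H3K36me3/H4K16ac set 14 (27.5%, background 56.7%). H3K27ac was found at 1 member, SIX3 (1.96%, background 10.9%).

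**Figure D1:**
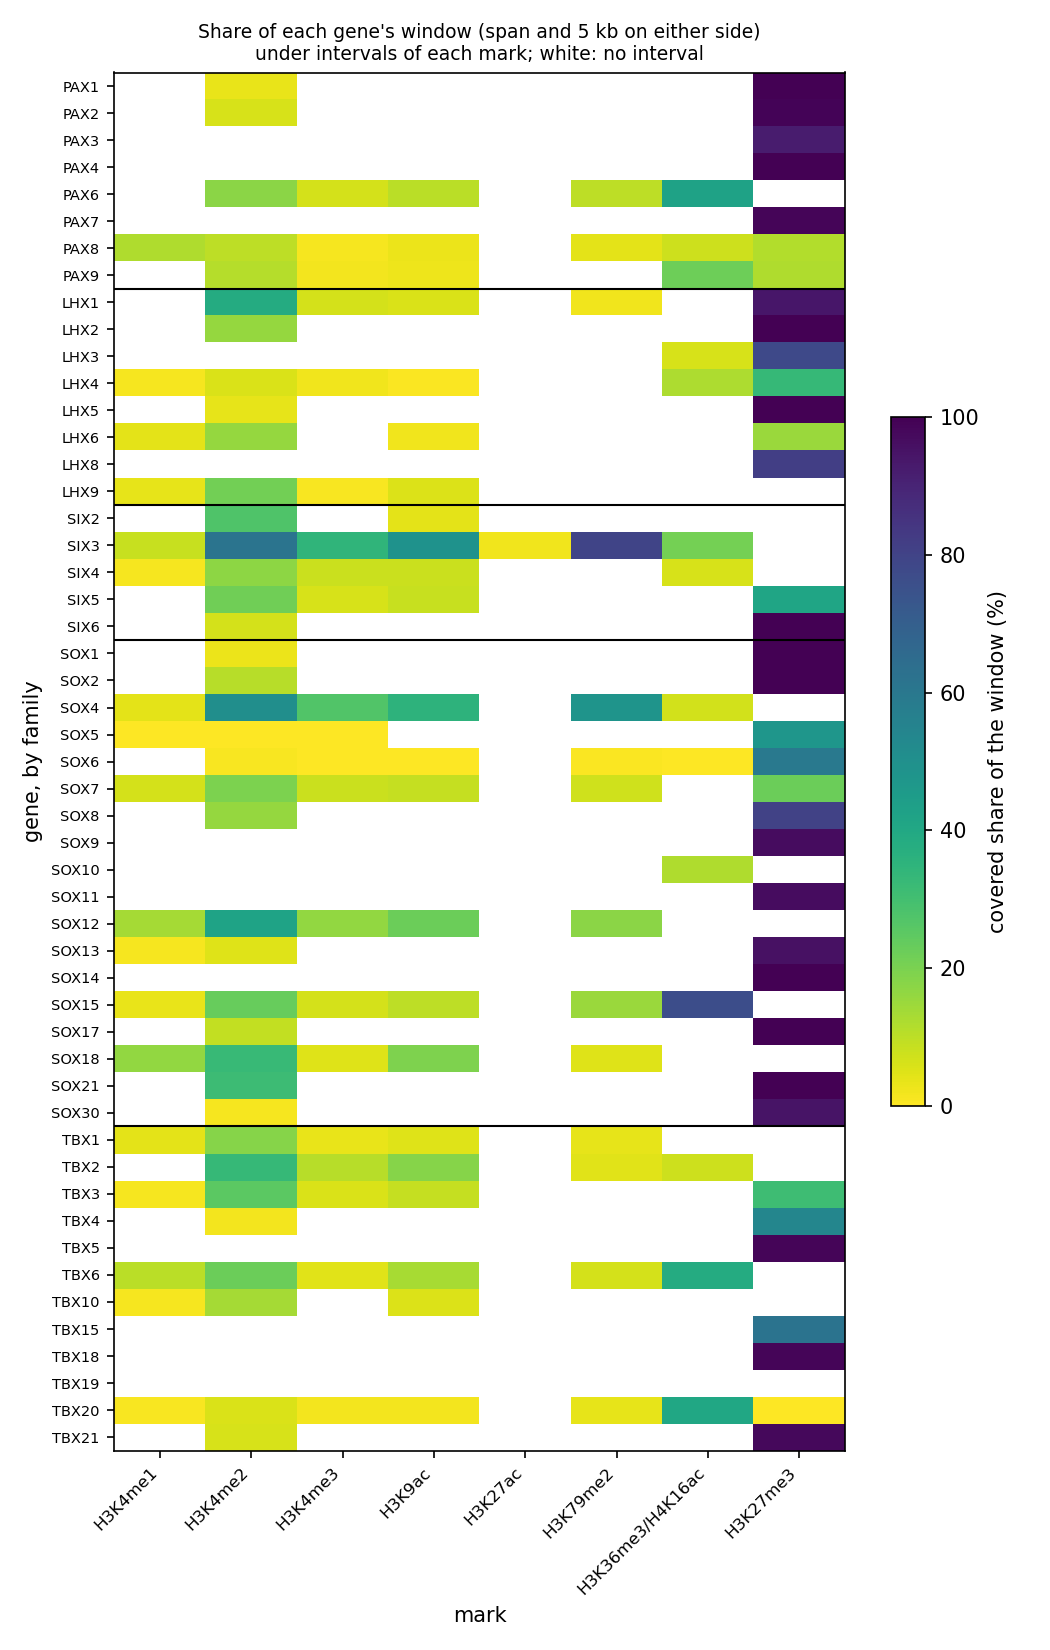
Share of each member's window (in percent, colour) under intervals of each of the 8 sets, with 1 row per gene in family order and black lines between families. H3K27me3, in the last column, fills most of the window of many members, while H3K27ac appears in the SIX3 row only.

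Crossing H3K4me3 with H3K27me3 divided the members into 4 states. H3K27me3 without H3K4me3 was found at 26 of the 51 members, against 28.1% of all genes. H3K4me3 without H3K27me3 was found at 11 (21.6%), against 42.8%. Both marks lay in the window of 10 (19.6%), against 16.2%, and 4 (7.84%) had neither, against 12.9%. The members were thus more often under H3K27me3 alone and less often under H3K4me3 alone than protein-coding genes at large. A window can catch a neighbour's mark, but the 32 members with no other protein-coding gene in the window had a similar make-up, with 18, 7, 5 and 2 in these states. Over all 8465 genes without another in the window the shares were 41.1%, 29.9%, 15.6% and 13.3%, so H3K27me3 alone was also more frequent among such genes at large.

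The families differed in how often H3K27me3 was called. It marked 7 of 8 PAX genes, 7 of 8 LHX genes and 13 of 18 SOX genes, with family medians of 95.5%, 79.8% and 87.4% of the window. SIX-family and TBX genes stood lower, with 2 of 5 and 7 of 12 marked and medians of 0 and 15.6%. Over all protein-coding genes the share was 44.3% and the median 0. Counted over the window, SIX-family genes were thus close to the background, and the other families stood above it. Over the gene span alone, TBX genes were no longer apart from SIX-family genes. There H3K27me3 marked 5 of 12 TBX and 2 of 5 SIX-family genes, both with a median cover of 0. It marked 6 of 8 PAX, 7 of 8 LHX and 12 of 18 SOX genes, beside 34.8% of all genes. SIX-family genes had the most H3K4me3 in proportion, at 3 of 5, which is close to the 59.0% of all genes. The other families were below that share, with 3 of 8 PAX, 3 of 8 LHX, 7 of 18 SOX and 5 of 12 TBX genes. H3K4me2 was found at 5 of 5 SIX-family, 5 of 8 PAX, 6 of 8 LHX, 14 of 18 SOX and 8 of 12 TBX genes. Its share over all genes was 78.9%. With so few genes in a family, a single gene moves these shares by many points.

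**Figure D2:**
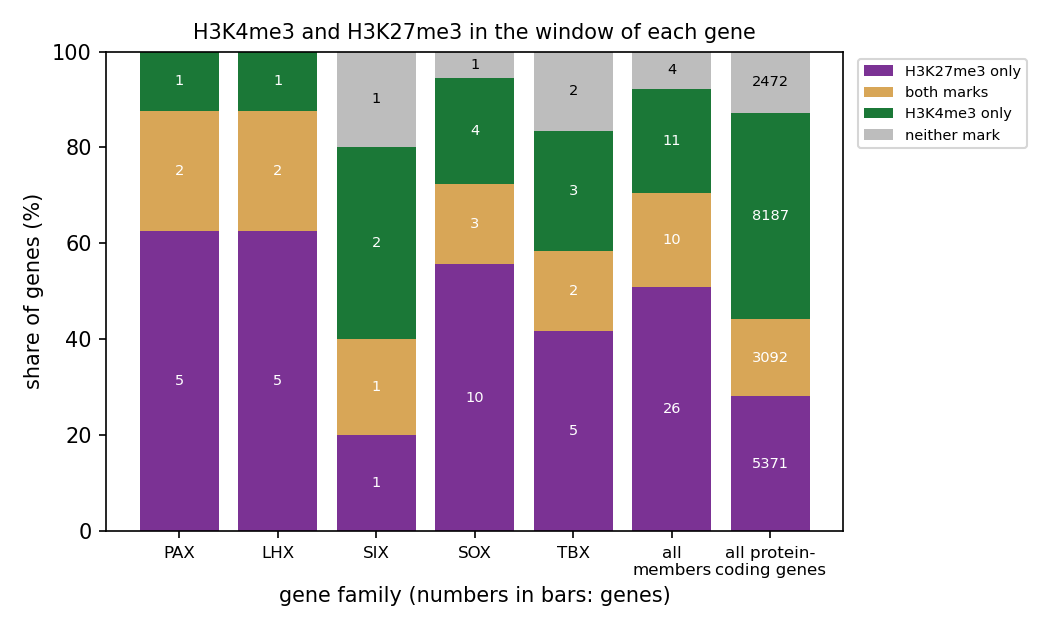
Share of genes (in percent) in each of the 4 states of H3K4me3 and H3K27me3, for each family, for all 51 members and for all 19122 protein-coding genes, with the number of genes in each bar. The purple part, H3K27me3 alone, is largest in PAX and LHX (5 of 8 each) and smallest in the SIX-family genes (1 of 5).

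In the PAX family, the genes with H3K27me3 alone were PAX1, PAX2, PAX3, PAX4 and PAX7. PAX3 and PAX7 act in neural crest and muscle precursors, PAX2 in kidney and midbrain, PAX1 in the vertebral column and PAX4 in pancreatic beta cells. H3K27me3 covered 100% of the spans of PAX1 and PAX4, 99.5% of PAX2, 98.7% of PAX7 and 97.0% of PAX3. PAX2 was reached by the widest H3K27me3 region at any member, 125 kb long, and PAX7 by a region of 119 kb. Of all 120364 H3K27me3 regions, 0.0191% were at least as wide as the PAX2 region, and the median region was 5.0 kb wide.

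Among LHX genes, LHX2, LHX3, LHX5, LHX6 and LHX8 had H3K27me3 and no H3K4me3. LHX2 acts in the forebrain and eye, LHX3 in the pituitary and motor neurons, LHX5 in the forebrain, and LHX6 and LHX8 in neurons of the ventral forebrain. H3K27me3 covered the whole spans of LHX2, LHX3 and LHX5, and 78.9% of the span of LHX8 in 10 regions. LHX6 differed from these: H3K27me3 covered 3.63% of its span, as 1 region of 5500 bp over the most upstream end of the gene. Elsewhere LHX6 held 5700 bp of H3K4me2, 1500 bp of H3K4me1 and 750 bp of H3K9ac, none of it inside H3K27me3. LHX3 also had 1128 bp of the H3K36me3/H4K16ac set in a flank shared with QSOX2.

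The SOX family had 10 genes in this state: SOX1, SOX2, SOX8, SOX9, SOX11, SOX13, SOX14, SOX17, SOX21 and SOX30. SOX1 and SOX2 keep neural progenitors, SOX14 and SOX21 act in neurons, SOX9 in cartilage and testis, SOX17 in endoderm and vessels, and SOX30 in male germ cells. H3K27me3 covered the whole span of SOX1, SOX2, SOX9, SOX11, SOX14, SOX17 and SOX21. It covered 97.7% of SOX13, 94.5% of SOX30 and 80.8% of SOX8. SOX1, a single-exon gene of 4558 bp at chr13:112067149-112071706, sat in a region of 122500 bp, so the mark reached far past the gene. SOX17 and SOX2 sat in regions of 54.0 and 48.0 kb.

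TBX4, TBX5, TBX15, TBX18 and TBX21 were the TBX genes with H3K27me3 alone, and SIX6 the only such gene of its family. TBX5 and TBX4 act in the fore- and hindlimb, TBX5 also in the heart, TBX18 in the sinus node and urinary tract, and TBX21 (T-bet) in T helper cells. H3K27me3 covered 98.4% of the TBX18 span, 98.2% of TBX5 and 96.1% of TBX21. It was patchy over TBX15, with 58.2% of the span in 10 regions, and over TBX4, with 56.8%. SIX6, an eye and pituitary factor, was wholly covered, in a region of 41.0 kb.

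**Figure D3:**
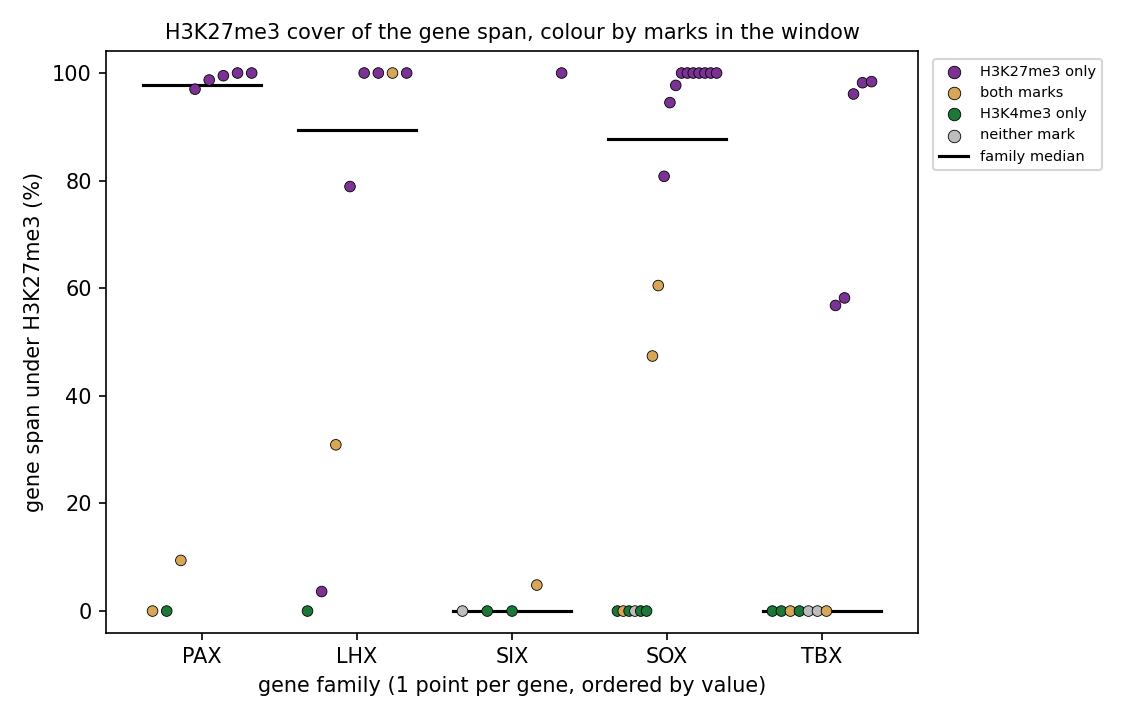
Percent of each member's span under H3K27me3, 1 point per gene, coloured by the state of its window, with a line at the family median. Points gather near 100% or near 0, with 7 of 51 genes between 30% and 90%.

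Cover of the span was mostly near complete or absent. H3K27me3 covered at least 90% of the span of 22 members (43.1%), against 12.0% of all genes. These were 5 PAX, 4 LHX, 1 SIX-family, 9 SOX and 3 TBX genes. Nearest to this limit lay SOX30 at 94.5% above it and SOX8 at 80.8% below it. For 10 members (19.6%) the whole window lay within 1 H3K27me3 region, against 2.57% of all genes. They were PAX1, PAX4, LHX2, LHX5, SIX6, SOX1, SOX2, SOX14, SOX17 and SOX21. The widest region at each marked member had a median of 34.8 kb over the 36 members, from 4.5 to 125 kb, beside 16 kb over the 8463 marked genes of the genome. The members' median length of 12818 bp was below that of all genes, 24490 bp.

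Of the 26 members with H3K27me3 alone, 15 (57.7%) also had H3K4me2, beside 49.4% of all genes in that state, so the mark was not much more frequent here. Out of all 51 members, 15 had H3K27me3 and H3K4me2 but no H3K4me3, beside 13.9% of all protein-coding genes. Counted this way, the combination was more frequent among members. At 12 of these 15 all of the H3K4me2 lay inside H3K27me3. In part this held for PAX2 and SOX13, and LHX6 was the exception. At PAX1, LHX2, LHX5, SIX6, SOX1, SOX2, SOX17 and SOX21 full overlap was fixed, because the whole window lay within 1 H3K27me3 region. The H3K4me2 came to 6455 bp at PAX2, 4950 bp at LHX2, 4050 bp at SOX21, 3150 bp at SOX13, 2400 bp at SOX8, 1350 bp each at SOX2 and TBX21 and 1200 bp at SOX17. It was 900 bp at SIX6, 750 bp each at PAX1, LHX5, SOX30 and TBX4, and 450 bp at SOX1. The span of SOX21 had the largest share under it, 61.4%. At the 10 members with both H3K4me3 and H3K27me3, 36.1% of the H3K4me2 and 19.5% of the H3K4me3 lay inside H3K27me3, and 6.04% of the H3K9ac. None of the H3K79me2 or of the H3K36me3/H4K16ac set did at any member. These overlaps with H3K27me3 were not computed for all genes.

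The remaining marks were rare at the 26 members with H3K27me3 alone. At all genes in that state most were uncommon as well, but H3K4me1 was found at 24.8%. H3K9ac was found at 1 (LHX6), beside 10.6% of those genes, and the H3K36me3/H4K16ac set at 1 (LHX3), beside 8.92%. H3K79me2 was found at 0, beside 1.27%. H3K4me1 was found at 2 (LHX6, and SOX13 with 900 bp), or 7.69%, and so less often than at those genes (24.8%).

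The 11 members with H3K4me3 and without H3K27me3 were PAX6, LHX9, SIX3, SIX4, SOX4, SOX12, SOX15, SOX18, TBX1, TBX2 and TBX6. All 11 had H3K9ac and H3K4me2, as did 99.2% and 99.9% of all genes in this state. H3K79me2 and H3K4me1 were found at 9 each (81.8%), again close to the 85.3% and 81.7% of those genes. The H3K36me3/H4K16ac set was found at 7 (63.6%), beside 89.7%. SIX3 and SOX4 had the most H3K4me3, H3K9ac and H3K79me2 in bp.

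SIX3, a forebrain and eye factor at chr2:44941702-44946071, was the member with the most H3K4me3, 4950 bp of its window. H3K4me3 covered 75.5% of its 4370 bp span, H3K4me2 88.1%, H3K9ac 68.6% and H3K79me2 97.7%. H3K79me2 reached 11399 bp, or 79.3% of the window, the highest share of any member. The gene also had 300 bp of H3K27ac, the only such interval at a member, 3000 bp of the H3K36me3/H4K16ac set and 1199 bp of H3K4me1.

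SOX4 and SOX12 are SOXC factors of neural progenitors, and SOX4 also acts in lymphocytes. SOX4, at chr6:21593751-21598619, had 4050 bp of H3K4me3, 5250 bp of H3K9ac, part of it in the upstream flank, and 7200 bp of H3K79me2. Its span was covered to 83.2% by H3K4me3, 85.6% by H3K9ac and wholly by H3K79me2. H3K4me2 covered 7519 bp, H3K4me1 600 bp and the H3K36me3/H4K16ac set 1000 bp, the last beyond the 3′ end. SOX12, at chr20:325552-330224, had 2400 bp of H3K4me3 (50.3% of the span), 3300 bp of H3K9ac, 6150 bp of H3K4me2, 2550 bp of H3K79me2 and 1950 bp of H3K4me1. The third SOXC gene, SOX11, was wholly under H3K27me3 with no other mark in its window.

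The 250 bases before the starts of SOX4 (chr6:21593501-21593750, plus strand) and SOX12 (chr20:325302-325551, plus strand) are shown because the genes share a state and differ in sequence. They are RefSeq promoters of build GRCh38.p14, written 5′ to 3′ with each CG in capitals.
SOX4: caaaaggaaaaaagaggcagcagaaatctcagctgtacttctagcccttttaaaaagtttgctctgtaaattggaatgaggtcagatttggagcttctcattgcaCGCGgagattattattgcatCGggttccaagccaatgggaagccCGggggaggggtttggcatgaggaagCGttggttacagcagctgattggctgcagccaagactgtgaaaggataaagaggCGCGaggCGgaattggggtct
SOX12: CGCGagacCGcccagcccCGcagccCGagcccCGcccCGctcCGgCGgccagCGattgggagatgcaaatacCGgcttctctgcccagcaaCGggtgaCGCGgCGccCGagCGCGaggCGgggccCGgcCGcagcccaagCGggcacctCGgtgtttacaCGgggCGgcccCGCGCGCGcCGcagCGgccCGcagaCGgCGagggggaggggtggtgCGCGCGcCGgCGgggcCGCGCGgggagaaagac
SOX4 holds 8 CG here and SOX12 holds 42, where the median of 15100 promoters is 17 and 96.9% hold at least 1. H3K4me2 covered all 250 bases at SOX4 and 199 at SOX12. H3K4me3 began after the start at SOX4 and covered the last 51 bases at SOX12. The SOX4 sequence was chosen as the gene with the highest H3K4me3 cover and a promoter in the reference; this second one, like those of SIX4, SIX6, TBX19 and PAX6 below, was chosen after its values were seen.

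PAX6, the eye and pancreas factor at chr11:31789026-31817961 on the minus strand, had 2550 bp of H3K4me3, all of it within the gene. The widest of its 3 H3K4me3 regions, 1950 bp at chr11:31809001-31810950, lay over the third of 9 annotated starts and not over the most upstream one. H3K9ac covered 4050 bp, H3K4me2 6750 bp and H3K79me2 3900 bp of the window. The H3K36me3/H4K16ac set covered 53.5% of the span, and its larger region reached into the overlapping end of ELP4. The 250 bases before the most upstream start (chr11:31817962-31818211) and before that inner start (chr11:31809960-31810209) are shown to compare a start without and one with H3K4me3, each CG in capitals.
PAX6 upstream start: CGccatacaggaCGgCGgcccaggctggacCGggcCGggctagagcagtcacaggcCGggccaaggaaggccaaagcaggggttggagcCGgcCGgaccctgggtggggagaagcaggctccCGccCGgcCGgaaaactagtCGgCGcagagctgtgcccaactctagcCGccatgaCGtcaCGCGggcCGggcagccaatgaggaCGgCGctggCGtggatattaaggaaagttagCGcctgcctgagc
PAX6 inner start: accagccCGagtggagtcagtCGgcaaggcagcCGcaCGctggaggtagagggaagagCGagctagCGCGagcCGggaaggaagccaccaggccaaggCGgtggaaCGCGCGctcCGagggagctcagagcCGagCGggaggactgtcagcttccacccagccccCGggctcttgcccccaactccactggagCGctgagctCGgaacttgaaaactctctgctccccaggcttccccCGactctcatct
The sequences hold 22 and 19 CG. None of the marks covered the upstream one, while H3K4me2, H3K4me3 and H3K9ac covered all 250 bases of the inner one and H3K79me2 covered 241. The number of CG thus differed little between these 2 starts, which do not stand for all 9. Counted over 300 bases, the most downstream start also had H3K4me3, over 161 bases, and held 11 CG. The starts without H3K4me3 held from 5 to 32 CG.

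The other members of this state had less H3K4me3. SIX4 had 1950 bp of H3K4me3, 1950 bp of H3K9ac, 4200 bp of H3K4me2, 1500 bp of the H3K36me3/H4K16ac set and 300 bp of H3K4me1. TBX2, a factor of limb and heart that represses cell cycle inhibitors, had 2100 bp of H3K4me3, 3600 bp of H3K9ac, 6450 bp of H3K4me2, 1500 bp of the H3K36me3/H4K16ac set and 900 bp of H3K79me2 in a flank. SOX18, a factor of blood and lymph vessels, had 600 bp of H3K4me3 and 2319 bp of H3K9ac, and H3K9ac covered 84.5% of its span. It also had 3958 bp of H3K4me2, 1939 bp of H3K4me1 and 600 bp of H3K79me2. TBX1, which acts in the pharyngeal arches, had 1200 bp of H3K4me3, 1800 bp of H3K9ac, 6750 bp of H3K4me2, 1500 bp of H3K4me1 and 1350 bp of H3K79me2. LHX9, a gonad and brain factor, had the least H3K4me3 of the state, 300 bp, beside 7050 bp of H3K4me2, 1800 bp of H3K9ac and 1200 bp of H3K4me1.

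For some members the H3K4me3 lay over another gene. It touched the span at 17 of the 21 members with H3K4me3 and lay in a flank alone at LHX1, SOX6, SOX15 and TBX6. At LHX1 a region of 450 bp lay 35 bp from the span and over no other gene, and another lay over AATF. The region beside SOX15 (750 bp) lay over MPDU1, that beside TBX6 (750 bp) over YPEL3, and that beside SOX6 (1800 bp) over C11orf58. SOX15 had 9094 bp of the H3K36me3/H4K16ac set, 2773 bp of H3K4me2, 1800 bp of H3K79me2, 1200 bp of H3K9ac and 373 bp of H3K4me1. Apart from the H3K36me3/H4K16ac set, at 73.9%, none of these touched its 1917 bp span. TBX6, a factor of somite formation, had 6208 bp of that set, 3600 bp of H3K4me2, 2100 bp of H3K9ac, 1650 bp of H3K4me1 and 1050 bp of H3K79me2. To which gene these marks belong was not tested.

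Both H3K4me3 and H3K27me3 were found at PAX8, PAX9, LHX1, LHX4, SIX5, SOX5, SOX6, SOX7, TBX3 and TBX20. At 7 of these 10 the marks lay apart. The gap between the nearest H3K4me3 and H3K27me3 regions was 1500 bp at TBX3, 3450 bp at SIX5, 5100 bp at TBX20, 5500 bp at SOX6, 6750 bp at PAX9, 6850 bp at SOX7 and 36650 bp at PAX8. The marks overlapped at LHX1 (450 of 1162 bp of H3K4me3), LHX4 (1350 of 1350 bp) and SOX5 (300 of 300 bp). Sharing a window therefore meant sharing sequence at 3 members. How often this holds over all genes with both marks was not computed, so it is not shown to be particular to these members.

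PAX8, a thyroid and kidney factor at chr2:113215997-113278921 on the minus strand, had H3K27me3 at its annotated start, as 1 region of 8500 bp, and other marks deep inside the gene. There it held 900 bp of H3K4me3, 2100 bp of H3K9ac, 7350 bp of H3K4me2, 8850 bp of H3K4me1 in 8 regions, 2850 bp of H3K79me2 and 5500 bp of the H3K36me3/H4K16ac set. This H3K4me1 was the most at any member. PAX9, a tooth and thymus factor, had 600 bp of H3K4me3, 750 bp of H3K9ac, 3600 bp of H3K4me2 and 7000 bp of the H3K36me3/H4K16ac set, with 3795 bp of H3K27me3 outside its span.

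LHX1, a kidney and head organiser factor, was covered over its whole span by H3K27me3, 16716 bp of the window. It also had 6878 bp of H3K4me2, 1162 bp of H3K4me3 and 1012 bp of H3K9ac, each partly in a region that overlaps AATF. All of its 412 bp of H3K79me2 came from a region over AATF, 4589 bp from the LHX1 span. Of the H3K9ac, 300 bp lay on the LHX1 span. LHX4, a pituitary factor, had 20000 bp of H3K27me3, which took up 30.9% of its span and reached beyond it. All of its 1350 bp of H3K4me3 and its 450 bp of H3K9ac lay within the span, beside 3450 bp of H3K4me2, 750 bp of H3K4me1 and 7500 bp of the H3K36me3/H4K16ac set, the latter near ACBD6. SIX5, next to DMPK, had 900 bp of H3K4me3, 1200 bp of H3K9ac, 3150 bp of H3K4me2 and 5968 bp of H3K27me3. The last lay mostly in the flanks and covered 4.83% of its span.

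SOX7, an endothelial and endoderm factor, had 1350 bp of H3K4me3, 1500 bp of H3K9ac, 3300 bp of H3K4me2, 1200 bp of H3K79me2, 1050 bp of H3K4me1 and 3733 bp of H3K27me3 in a flank. TBX3, a limb and breast factor, had 1350 bp of H3K4me3, 2100 bp of H3K9ac, 6000 bp of H3K4me2 and 300 bp of H3K4me1. Its 7421 bp of H3K27me3 came from a region on each side of the gene, 1 of them 60.0 kb wide, and none of it touched the span. TBX20, a heart factor, was marked by 100 bp of H3K27me3 at the very edge of its window. It had 25000 bp of the H3K36me3/H4K16ac set, the most bp at any member, which covered 44.6% of its span (73.9% at SOX15 and 53.5% at PAX6). It also had 2400 bp of H3K79me2, 1050 bp of H3K4me3, 1200 bp of H3K9ac, 3450 bp of H3K4me2 and 600 bp of H3K4me1.

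SOX5 and SOX6, SOXD factors of cartilage and neurons, are by far the longest members, at 1033147 and 772029 bp. H3K27me3 covered 494650 bp of the SOX5 window in 83 regions, and 47.4% of the span. At SOX6 it came in 62 regions and covered 60.5% of the span. SOX5 also had 3300 bp of H3K4me2, 750 bp of H3K4me1 and 300 bp of H3K4me3. SOX6 had 7500 bp of H3K4me2, 1800 bp of H3K4me3, 2100 bp of H3K9ac, 4977 bp of H3K79me2 and 2977 bp of the H3K36me3/H4K16ac set. The last 2 lay wholly outside its span. Their promoters are shown as those of the member with the most H3K27me3 (SOX5, chr12:24562492-24562741) and of the member with both marks and the most H3K4me3 (SOX6, chr11:16738478-16738727), minus strand, each CG in capitals.
SOX5: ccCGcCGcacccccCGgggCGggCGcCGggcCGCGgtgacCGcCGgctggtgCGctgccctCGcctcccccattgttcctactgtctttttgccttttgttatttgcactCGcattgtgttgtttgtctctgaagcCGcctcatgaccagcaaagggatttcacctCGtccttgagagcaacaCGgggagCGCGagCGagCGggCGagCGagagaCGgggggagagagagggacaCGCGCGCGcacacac
SOX6: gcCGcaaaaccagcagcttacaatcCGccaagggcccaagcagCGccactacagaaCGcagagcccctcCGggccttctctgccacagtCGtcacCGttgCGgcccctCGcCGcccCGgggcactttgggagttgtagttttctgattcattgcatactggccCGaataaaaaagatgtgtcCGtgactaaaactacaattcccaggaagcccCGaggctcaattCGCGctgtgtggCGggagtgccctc
The SOX5 sequence holds 27 CG. H3K27me3 and H3K4me2 covered all 250 of its bases and H3K4me3 covered 159. The SOX6 sequence holds 17 CG and had no H3K27me3, with H3K9ac over all bases and H3K4me3 and H3K79me2 over 227. In SOX6 the H3K27me3 thus lay inside the gene and not at this start. It covered at least 194 of the 300 bases at each of the other 4 annotated starts.

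The 4 members with neither H3K4me3 nor H3K27me3 were SIX2, SOX10, TBX10 and TBX19. SIX2, a factor of kidney progenitors, had 3952 bp of H3K4me2, which covered 45.7% of its span, and 600 bp of H3K9ac. SOX10, a factor of neural crest and glia, had 2689 bp of the H3K36me3/H4K16ac set, on the side of POLR2F. TBX10 had 2754 bp of H3K4me2, 1050 bp of H3K9ac and 300 bp of H3K4me1. TBX19 (TPIT), the pituitary factor of corticotrophs at chr1:168280877-168314426, was the only member without any mark, as were 1008 of all protein-coding genes. Its promoter (chr1:168280627-168280876, plus strand) is shown as that of the unmarked member, each CG in capitals.
TBX19: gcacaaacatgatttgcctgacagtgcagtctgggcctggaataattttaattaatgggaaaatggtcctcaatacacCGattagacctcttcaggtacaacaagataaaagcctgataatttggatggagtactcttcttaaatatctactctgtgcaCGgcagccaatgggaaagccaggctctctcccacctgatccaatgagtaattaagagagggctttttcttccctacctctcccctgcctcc
It holds 2 CG, the fewest among the sequences shown.

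At the 3 pairs of neighbouring members described here, the genes of a pair had different states. Only 33.8% of all 1275 pairs of members shared a state, so these few pairs do not set neighbours apart. SIX3 and SIX2 lie 59.1 kb apart on chromosome 2, the first rich in H3K4me3 and the second without it. An H3K27me3 region of 9000 bp, 15.2% of the sequence between them, reached neither gene. On chromosome 17, TBX2 and TBX4 lie 43.0 kb apart, with H3K4me3 alone and H3K27me3 alone. H3K27me3 covered 66.2% of the sequence between them. TBX5 and TBX3 on chromosome 12 lie farther apart, 262 kb, and H3K27me3 covered 93.0% of that gap in 19 regions. It lay over 98.2% of the TBX5 span and over none of the TBX3 span. At none of these 3 neighbouring pairs, SIX3 with SIX2, TBX2 with TBX4 and TBX5 with TBX3, did a single H3K27me3 region reach both windows.

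**Figure D4:**
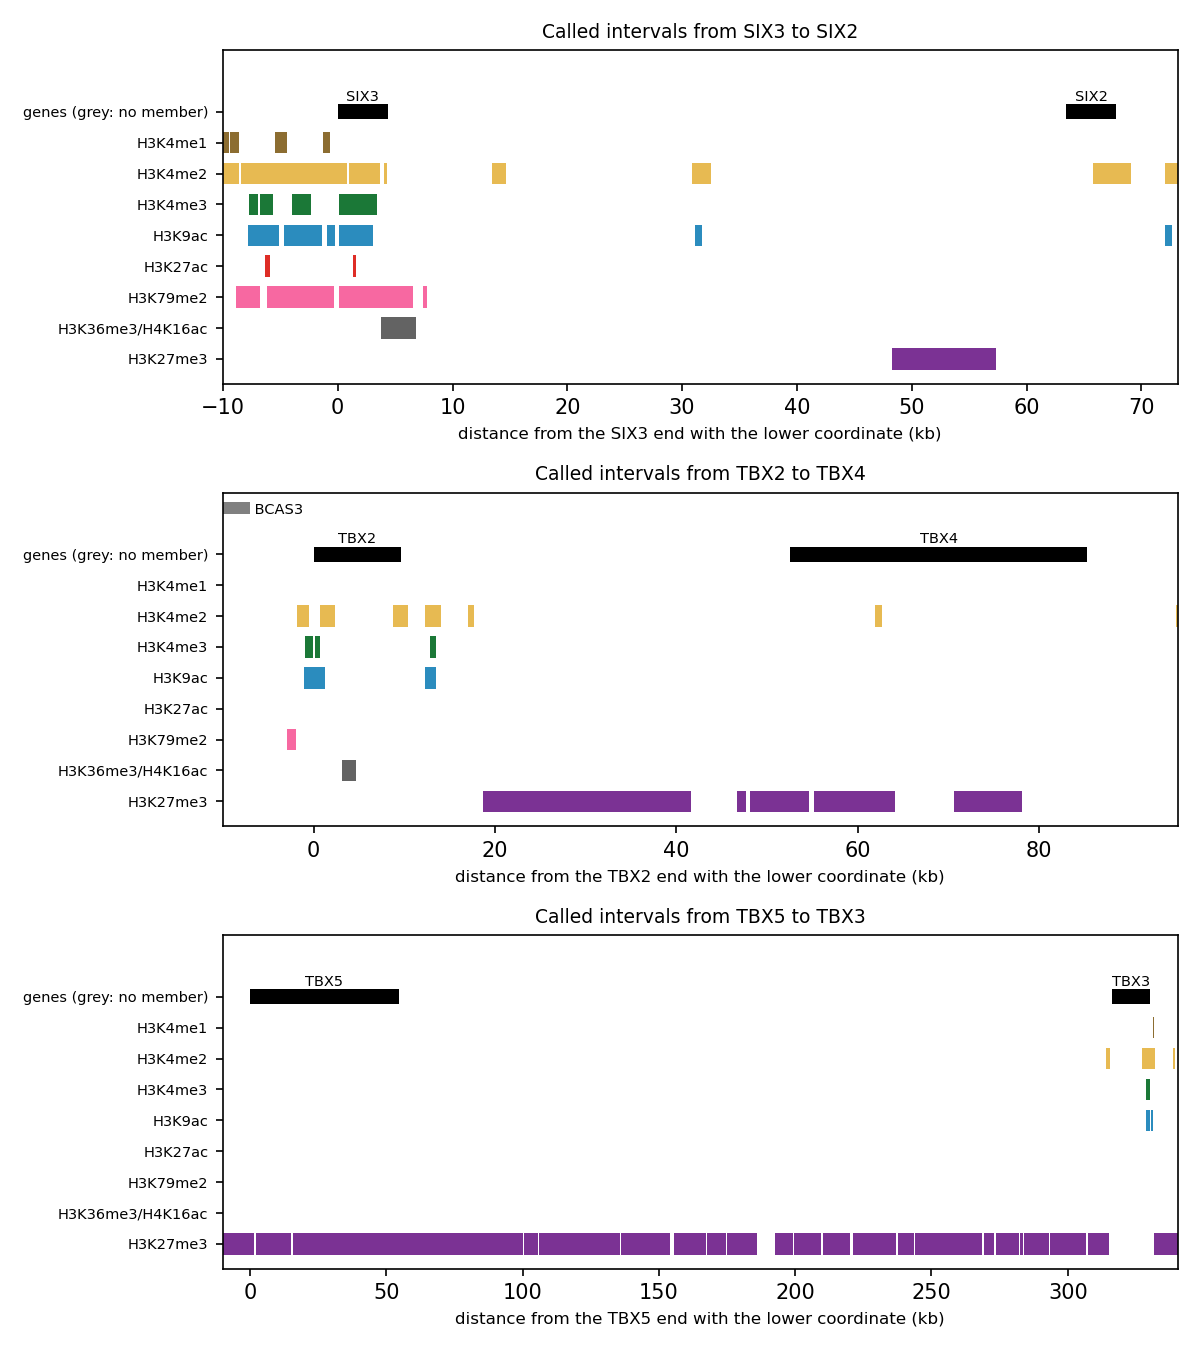
Called intervals of the 8 sets (rows) around 3 pairs of neighbouring members, with distance in kb from the lower-coordinate end of the first gene. Members are black bars and other protein-coding genes grey; H3K27me3 fills TBX5 and most of the sequence up to TBX3 and reaches into TBX4, while SIX3, TBX2 and TBX3 hold H3K4me3 and have no H3K27me3 on their spans.

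The promoters of SIX6, with H3K27me3 alone, and SIX4, with H3K4me3 alone, are shown to set the 250 bases before the start of a gene in either state side by side (SIX6, chr14:60508896-60509145, plus strand, and SIX4, chr14:60724352-60724601, minus strand), each CG in capitals.
SIX6: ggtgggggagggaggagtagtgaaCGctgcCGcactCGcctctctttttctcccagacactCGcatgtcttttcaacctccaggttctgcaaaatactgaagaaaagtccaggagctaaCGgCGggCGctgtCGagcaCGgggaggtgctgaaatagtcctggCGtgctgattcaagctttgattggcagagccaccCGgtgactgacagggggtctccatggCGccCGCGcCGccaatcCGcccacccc
SIX4: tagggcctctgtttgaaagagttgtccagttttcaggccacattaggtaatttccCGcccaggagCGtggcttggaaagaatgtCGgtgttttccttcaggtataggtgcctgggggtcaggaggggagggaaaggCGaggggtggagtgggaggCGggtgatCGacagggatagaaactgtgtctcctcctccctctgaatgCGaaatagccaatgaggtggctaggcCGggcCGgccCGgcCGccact
They hold 16 and 11 CG. H3K27me3 covered all 250 bases at SIX6 and none at SIX4, while H3K4me2 covered 205 and 250 bases. H3K4me3 covered none of either sequence: at SIX4 it lay just past the start, over 49 of the 300 bases that include the first ones of the gene.

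Close paralogues shared a state about as often as members at large. Of 28 pairs within the known subgroups, 9 (32.1%) shared a state, beside 33.8% of all 1275 pairs of members. SOX1 and SOX2, SOX14 and SOX21, and PAX3 and PAX7 shared a state and had at least 97.0% of the span of each under H3K27me3. Sharing a state depended on the window and did not always follow the cover. LHX1 and LHX5 differed in state through H3K4me3 in the LHX1 flanks, though H3K27me3 covered 100% of both spans. LHX6 and LHX8 shared a state with 3.63% and 78.9% of the span covered. One gene with H3K4me3 alone and the other with H3K27me3 alone was found at 6 pairs (21.4%), beside 22.4% of all pairs. These were SOX4 and SOX11, SOX12 and SOX11, SOX18 and SOX17, PAX6 and PAX4, SIX3 and SIX6, and LHX9 and LHX2. Pairs share genes in the larger subgroups and are not independent.

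Promoter sequence was compared over the 34 members with an entry in the RefSeq table, using the 300 bases at the most upstream start. CpG observed over expected, the number of CG divided by that expected from the C and G content, had a median of 0.78 over members and 0.77 over all 15100 genes. For members with H3K27me3 alone it was 0.73 (n = 18), against 0.41 for all genes in that state. A ratio of at least 0.6 was reached by 77.8% of these members and 39.2% of those genes. For members with H3K4me3 alone the median was 0.77 (n = 7, all genes 0.85), and for both marks 0.88 (n = 6, all genes 0.83). The 3 members with neither mark had 0.95 (SIX2), 0.27 (TBX10) and 0.19 (TBX19). By this median, promoters of members with H3K27me3 alone were richer in CG than those of all genes in that state, with PAX4 lowest at 0.08.

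**Figure D5:**
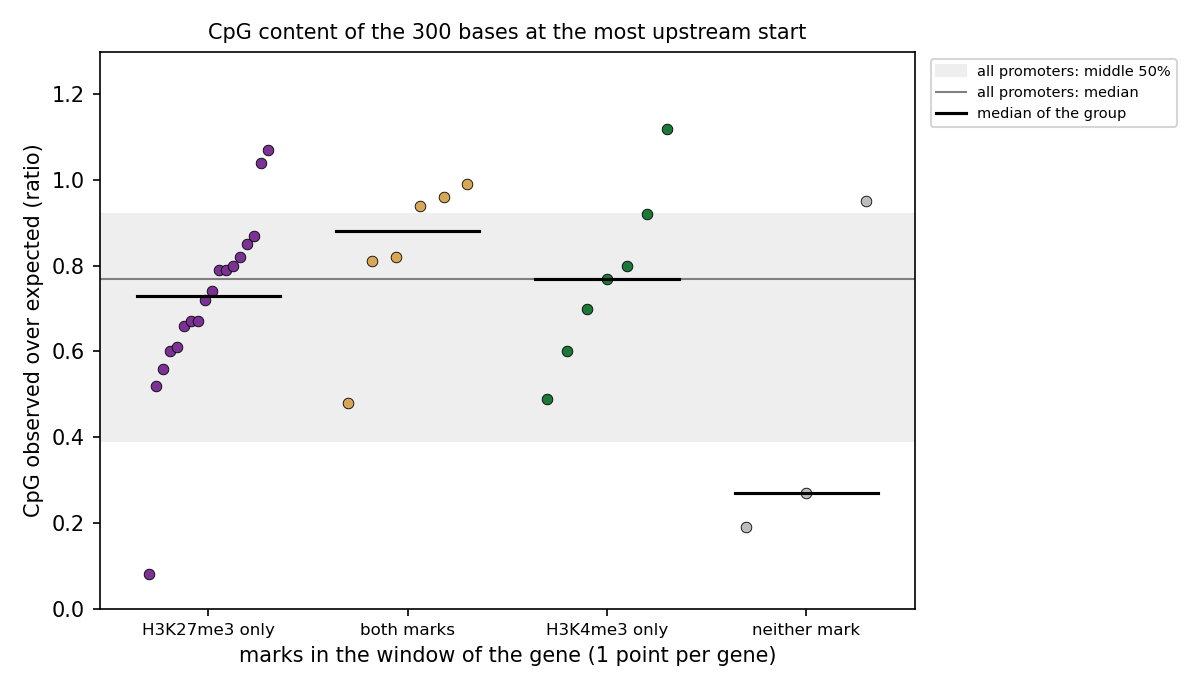
CpG observed over expected in the 300 bases at the most upstream start of 34 members, by state, 1 point per gene with a line at the median of each state. The grey band and line are the middle 50% (0.39 to 0.92) and the median (0.77) of all 15100 promoters; members with H3K27me3 alone spread from 0.08 to 1.07.

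H3K27me3 covered at least 1 base of this promoter in 20 of the 34 members (58.8%), against 23.8% of all promoters. H3K4me3 did so in 5 (14.7%), against 44.0%, and H3K9ac in 5 (14.7%), against 49.6%. H3K4me2 was found at 14 (41.2%), against 59.8%, and H3K79me2 at 2 (5.88%), against 10.6%. H3K4me1, H3K27ac and the H3K36me3/H4K16ac set were found at 0 of the 34 members, and at 3.56%, 2.50% and 1.05% of all promoters. The members with H3K4me3 over this promoter were LHX4, SIX4, SOX5, SOX6 and SOX12.

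Genes that work with these families were read from a list of 28. H3K27me3 was found at 17 (all genes 44.3%), H3K4me3 at 15 (all genes 59.0%), H3K79me2 at 14 (all genes 48.0%), the H3K36me3/H4K16ac set at 14 (all genes 56.7%) and H3K27ac at 5 (all genes 10.9%). Of the SIX-family partners, the coactivators EYA1, EYA2 and EYA4 and the corepressor DACH1 had H3K27me3 alone, and EYA3 had H3K4me3 alone with 1500 bp. Of the LIM cofactors, LDB1, LMO2, SSBP2, SSBP3 and SSBP4 had H3K4me3 alone, as did the LHX relative ISL2. LDB2, LMO1, LMO3, LMX1A and LMX1B had H3K27me3 alone, and LMO4 and ISL1 had both. Of the T-box genes of other names, TBR1 and TBXT had H3K27me3 alone, EOMES both and MGA H3K4me3 alone. PAXIP1 and PAXBP1 had H3K4me3 alone. Of the SOX partners, POU3F2 had H3K27me3 alone, POU3F3 and CTNNB1 both, and POU5F1 neither.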

How the data were processed

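KBM-7 chromatin was crosslinked, sheared and immunoprecipitated for 9 histone marks, 1 library each, per the labels' protocols. The authors deposited 1 list of called intervals (chromosome, start, end, mark) without counts, scores or signal, so depth and precision are unknown. Cutadapt, Bowtie2, MACS and GRCh38 are named in the submitters' processing notes; versions, thresholds and the input behind each call: not given in the sources used here. Starts counted from 0 or from 1 were brought to 1 convention by their place on the 50 bp grid. Another label in the list (1) belongs to no sample and stayed out. H3K36me3 and H4K16ac, identical, were used as 1 set, which leaves 8. The inputs entered no comparison.

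Touching or overlapping intervals were merged per mark into regions, which sets the region widths given, and intersected with gene spans of a RefSeq table (GRCh38.p14) and 5 kb on either side, in Python 3.11.15 with numpy 2.4.6 and pandas 2.3.3. The overlap functions were checked on simulated intervals. Promoter sequences were RefSeq's for that assembly; 34 of 51 members had an entry. Some genes that the rules would name are not reported here. The members, lists and rules were chosen with earlier results of these data known. Every member is named with its state, and values in all marks are given for those with H3K4me3, without H3K27me3, with a mark of transcription, at a family's highest or lowest H3K27me3 cover, or within 200 kb of another member. Alternatives were other windows, a minimum of 500 bp, wider regions, isolated genes, windows around starts, and 2 chromosome stretches or the 2 longest members left out; the last was chosen after seeing the data.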

Additional observations from a re-analysis of the deposited data

How the results depend on the processing

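Of 111 values recomputed under the alternatives, 91 stayed within 1.5 times the reported share and 20 moved by at least 1.5 times; none of these values has a test. The members' H3K27me3 share and their states with H3K27me3 alone and with H3K4me3 alone stayed within 1.5 times under every alternative run. The share over all genes moved too. Where no other gene lay in the window, H3K27me3 marked 71.9% of members against 56.8% of genes, and H3K4me3 37.5% against 45.6%. With 10 kb on either side, H3K27me3 marked 76.5% against 51.0%. It marked 62.7% against 34.8% over the gene span alone, and 64.7% against 29.5% within 2 kb of annotated starts. Counted over the gene span alone, H3K4me1 marked 23.5% of members (all genes 46.8%) and H3K79me2 17.6% (42.1%), while 7.84% had both H3K4me3 and H3K27me3 (7.13%) and 11.8% neither (18.0%). With at least 500 bp required, H3K27ac marked 0 (6.97%). With regions at least as wide as the median of their mark, H3K4me1 marked 23.5% (40.1%), H3K27ac 0 (6.64%), H3K36me3 and H4K16ac 15.7% each (48.6%), and 15.7% had neither H3K4me3 nor H3K27me3 (23.4%). Among members with no other gene in the window, H3K27ac marked 3.12% (7.69%), which is SIX3. Within 2 kb of annotated starts (34 members), H3K4me1 marked 14.7% (all genes 35.8%), H3K9ac 29.4% (60.0%), H3K27ac 0 (7.36%), H3K79me2 14.7% (44.6%), H3K36me3 and H4K16ac 2.94% (18.6%), both marks 8.82% (5.31%) and neither mark 14.7% (19.2%), and the median H3K27me3 cover was 93.6% (0). This last setting has fewer members and shorter windows. Leaving out the 2 members longer than 500 kb, a setting chosen after seeing the data, or chromosome 8 and part of chromosome 15, moved none of the 14 values by more than 1.5 times. No paired analysis was possible because each mark has 1 library and no test was made. Depth limits cannot be given, as the intervals carry no counts: an absent interval means that none was called.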
